A study of Mus musculus with 6 samples.

Results

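The YAP and TAZ effectors and targets described here are 9 genes chosen by symbol: the coactivator genes Yap1 and Wwtr1, the TEAD factor genes Tead1 and Tead4, the targets Ctgf, Cyr61 and Ankrd1, and Amotl2 and Lats2, which are both targets and restraints of the pathway. All 9 were among the 24421 genes of the count table, and 8 had counts and were tested; Ankrd1 had no read in any library. RNA was sequenced from endothelial cells isolated from retinas of 7-day-old mouse pups of mixed BL6/CD1 background. The 3 Smad4f/f control samples carried floxed Smad4 without Cre, and the 3 Smad4-iECKO samples carried floxed Smad4 with Cdh5-CreERT2, a Cre recombinase that is active after tamoxifen and is expressed from an endothelial cadherin promoter. The protocol given for all samples was tamoxifen on postnatal day 1, and the labels give neither the number of pups per sample nor their sex. The comparison asks how these transcripts differ after endothelial deletion of SMAD4, the common partner of the receptor-activated SMADs of BMP and TGF-beta signalling.

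YAP and TAZ (the product of Wwtr1) are coactivators that move into the nucleus when cells are stretched, spread or sparse, and bind DNA through TEAD factors. The Hippo kinases, which end in LATS1 and LATS2, phosphorylate them and hold them in the cytoplasm, and the angiomotins, AMOTL2 among them, bind and restrain them. Ctgf and Cyr61 encode secreted matricellular proteins of the CCN family and are standard readouts of the pathway. In the retina, endothelial YAP and TAZ are needed for the vascular plexus to sprout and spread. Protein amount and localisation, by which the pathway is mainly controlled, were not measured, and the values below are transcript levels only.

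The core sequence that TEAD factors recognise is CATTCC, or GGAATG on the other strand, and it is shown here because it links the TEAD factors of the set to its targets. RefSeq promoters (GRCm38.p6, the build of mm10) were matched for 6 of the 9 genes, and there was no entry for Tead1, Tead4 and Ctgf. The 250 bases before the start held the motif, on either strand, in 5 of these 6 genes. Counted per promoter entry, it was in 6 of their 8 entries and in 12.6% of all 32851 entries. The Wwtr1 entries overlap and hold the same match. Lats2 held no match in its 2 windows, at chr14:57746124-57746373 and chr14:57734419-57734668. Both lie inside the annotated gene (57689662 to 57758388, minus strand). The bases before its outermost annotated start were not searched. The whole window is printed for Cyr61, one of the genes whose levels differ most between the groups, at chr3:145649986-145650235 on the minus strand, with the motif in capitals 103 bases before the start.
Cyr61: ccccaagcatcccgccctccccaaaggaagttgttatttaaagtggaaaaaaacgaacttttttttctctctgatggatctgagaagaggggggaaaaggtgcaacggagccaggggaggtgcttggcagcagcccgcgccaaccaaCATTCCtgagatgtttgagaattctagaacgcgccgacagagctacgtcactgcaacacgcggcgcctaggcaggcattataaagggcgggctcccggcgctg

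The other matches are printed as 30 bases around the motif, 5′ to 3′ on the strand of the gene, so that their flanks can be compared. They lie at chr9:102717727-102717756 (plus strand) for Amotl2, chr9:8004720-8004749 (minus strand) for Yap1, chr3:57576029-57576058 (minus strand) for Wwtr1, and chr19:36120037-36120066 and chr19:36119950-36119979 (minus strand) for the 2 matches of Ankrd1. The distance to the start was 65 bases in Amotl2, 141 in Yap1, 136 in Wwtr1, and 210 and 123 in Ankrd1. Annotated exons cover 250 bases of the Ankrd1 window, 136 of the Amotl2 window and 17 of the Yap1 window. For Wwtr1 a second annotated start puts the same match 170 bases upstream. A match describes the letters only, and binding was not measured.
Amotl2: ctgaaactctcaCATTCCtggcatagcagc
Yap1: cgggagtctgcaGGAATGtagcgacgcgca
Wwtr1: ggtaaactcaaaGGAATGcagataggcgct
Ankrd1, distal: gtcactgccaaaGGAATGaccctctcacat
Ankrd1, proximal: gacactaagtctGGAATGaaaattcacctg

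Libraries held 12633018 to 23164952 counts, except Smad4-iECKO replicate 2 with 2233360, so values of that library carry the largest counting error. Levels are given as CPM (counts scaled to library size by TMM) and fold changes as log2 of Smad4-iECKO over Smad4f/f. All 12 endothelial markers had counts in every library, and their summed level was 1260 to 6453 CPM in controls and 2121 to 4629 CPM in Smad4-iECKO. Photoreceptor transcripts were present as well, with 3580 to 7348 and 4485 to 5652 CPM over 8 rod markers. The rod sum exceeded the endothelial sum in Smad4f/f replicates 2 and 3 and in Smad4-iECKO replicates 1 and 3. In Smad4f/f replicate 2 the sums were 7348 and 1260 CPM. The levels below are therefore those of mixed samples. In such bulk samples fewer cells of a type and less RNA per cell cannot be told apart. Smad4 itself was at 109.5 to 157.5 CPM in Smad4f/f and 93.9 to 133.9 CPM in Smad4-iECKO (log2 fold change -0.24, standard error 0.29). The labels do not name the floxed exons, so this gene count does not check the genotypes. By edgeR's quasi-likelihood test with Benjamini-Hochberg adjustment over 14362 genes, 0% of genes passed an adjusted p under 0.05, and none of the 8 tested members did. The smallest unadjusted p values of the set were those of Ctgf and Cyr61; 2 of 8 members were under 0.05, against 1.31% of all genes tested.

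The coactivator transcripts did not pass the test and were, on average, lower in Smad4-iECKO. Yap1 (chromosome 9, 7931999 to 8004596, mm10) was at 107.3, 31.9 and 68.6 CPM in Smad4f/f replicates 1, 2 and 3 and at 43.7, 51.1 and 69.4 CPM in Smad4-iECKO replicates 1, 2 and 3. The Smad4-iECKO libraries thus lay inside the range of the controls. Its log2 fold change of -0.34 had a standard error of 0.44 and a 95% interval from -1.32 to 0.65 (edgeR adjusted p = 0.999915). Wwtr1 (chromosome 3, 57455649 to 57575910) was at 447.1, 87.2 and 216.9 CPM in Smad4f/f and at 143.1, 99.9 and 207.8 CPM in Smad4-iECKO. Again the controls spanned every Smad4-iECKO value, and their mean rested on replicate 1. The Wwtr1 log2 fold change was -0.73 (standard error 0.55, interval -1.97 to 0.50), and it was -0.02 without Smad4f/f replicate 1.

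Per exon length, Wwtr1 was the more abundant coactivator transcript in all 6 libraries. Its level was 36.7 RPKM (median of 6 libraries, reads per kilobase of exon, scaled to library size) against 6.47 RPKM for Yap1. The ratio of Wwtr1 to Yap1 ranged from 3.79 in Smad4-iECKO replicate 2 to 8.07 in Smad4f/f replicate 1, with overlapping groups.

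The DNA-binding partners differed by less than their spread. Tead1 (chromosome 7, 112679318 to 112906807) was at 66.7, 86.6 and 124.7 CPM in Smad4f/f and at 131.1, 69.3 and 165.4 CPM in Smad4-iECKO. Of the Smad4-iECKO libraries, replicates 1 and 3 lay above all controls and replicate 2 near the lowest, for a log2 fold change of 0.40 (standard error 0.39, interval -0.47 to 1.28). Tead4 (chromosome 6, 128224288 to 128300823) was at 12.8, 3.46 and 12.2 CPM in Smad4f/f and at 6.78, 14.4 and 14.4 CPM in Smad4-iECKO, with overlapping groups. The Smad4-iECKO replicate 2 value rests on 31 counts, with a 95% exact Poisson interval of 9.79 to 20.5 CPM that covers counting error only. The Tead4 log2 fold change was 0.31 (standard error 0.58, interval -0.99 to 1.62), and it was -0.26 among the 4 libraries whose titles begin with Lit38.

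Among the 4 TEAD genes, Tead4 held the smallest share of the summed RPKM in every library, from 3.56% to 12.1%. Tead2 held 24.5% to 56.4%, Tead3 18.8% to 40.3% and Tead1 12.4% to 36.7%. Tead2 held the largest share in Smad4f/f replicates 1 and 3 and in Smad4-iECKO replicate 2. Tead3 held it in Smad4f/f replicate 2 and Smad4-iECKO replicate 1, and Tead1 in Smad4-iECKO replicate 3, so this order followed no group. The order depends on the exon lengths, 13570 bases for Tead1, 4788 for Tead2 and 6714 for Tead3. By CPM Tead1 was the highest in Smad4f/f replicates 2 and 3 and in Smad4-iECKO replicates 1 and 3. Tead2 was the highest by CPM in Smad4f/f replicate 1, and Tead3 in Smad4-iECKO replicate 2.

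**Figure D1:**
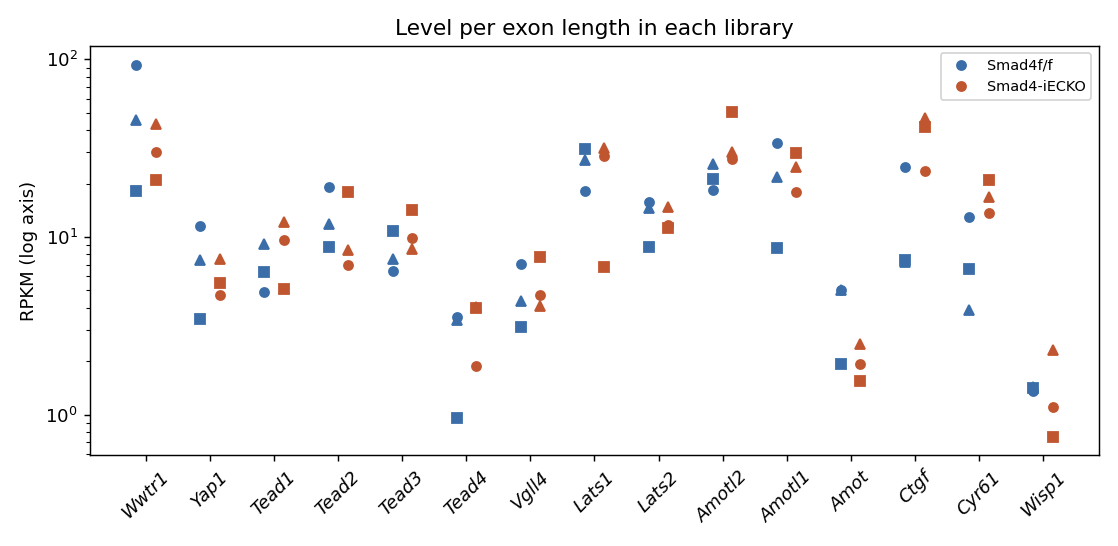
Level per exon length (RPKM, log axis) of pathway genes and their paralogs in each library; blue marks Smad4f/f, orange Smad4-iECKO, and circle, square and triangle replicates 1, 2 and 3. Wwtr1 lies above Yap1 in every library, and Tead4 is the lowest of the TEAD genes.

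The 2 secreted targets stood highest relative to the controls, although neither passed the test over all genes. Ctgf (annotated as Ccn2, chromosome 10, 24595442 to 24598683), which encodes connective tissue growth factor, was at 70.9, 21.2 and 20.7 CPM in Smad4f/f and at 67.2, 118.5 and 133.3 CPM in Smad4-iECKO. The control replicate 1 lay just above Smad4-iECKO replicate 1, and the remaining controls lay far below all Smad4-iECKO libraries. Ctgf averaged 37.6 ± 28.8 CPM in controls and 106.3 ± 34.7 CPM in Smad4-iECKO (mean ± SD, n = 3 per group). Its log2 fold change was 1.50, with standard error 0.53 and interval 0.31 to 2.69. By edgeR the unadjusted p was 0.0192 and the adjusted p 0.999915. Without Smad4f/f replicate 1 the log2 fold change of Ctgf was 2.33, and over all 6 fits that each left out 1 library it ranged from 1.20 to 2.33, with an unadjusted edgeR p under 0.05 in 3 of them. Exons of Ctgf share 665 bases with the antisense gene Gm15270, and the library kit does not keep strand, so reads there cannot be told apart.

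Cyr61 (annotated as Ccn1, chromosome 3, 145646976 to 145649981), the other matricellular target and the gene of the printed promoter, was at 26.3, 13.3 and 7.86 CPM in Smad4f/f and at 27.7, 42.3 and 34.1 CPM in Smad4-iECKO. Every Smad4-iECKO library lay above every control, though Smad4-iECKO replicate 1 exceeded Smad4f/f replicate 1 by little. Across all genes tested, 2.49% were higher in this way, with groups that did not overlap. Smad4-iECKO replicate 2 held 91 Cyr61 counts, and its 95% exact Poisson interval of 34.1 to 51.9 CPM lay above the control values. That interval covers the counting error of this library only, not the spread between libraries. Cyr61 averaged 15.8 ± 9.45 and 34.7 ± 7.34 CPM, for a log2 fold change of 1.13 (standard error 0.46, interval 0.08 to 2.17). The edgeR unadjusted p was 0.0374 and the adjusted p 0.999915. Leaving out 1 library at a time moved the Cyr61 log2 fold change between 0.80 (Smad4f/f replicate 3 left out) and 1.70 (Smad4f/f replicate 1 left out), with an unadjusted edgeR p under 0.05 in 2 of 6 fits.

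Ankrd1, a nuclear ankyrin repeat protein and a target widely used in muscle and epithelial cells, had 0 counts in all 6 libraries. With 3 counts as the limit, this allows up to 0.123 to 0.239 CPM in 5 libraries and 1.39 CPM in Smad4-iECKO replicate 2. The 2 motif matches printed above therefore lie in the promoter window of a gene whose transcript was not detectable at this depth.

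**Figure D2:**
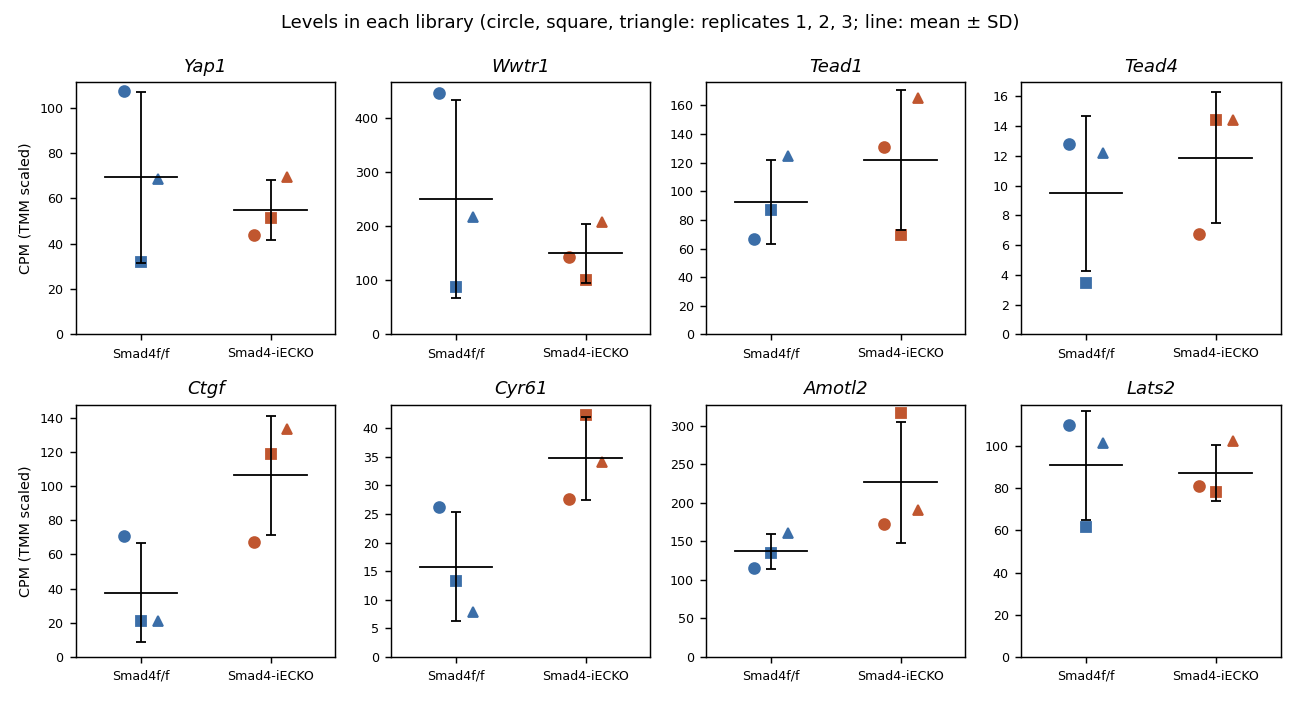
CPM of the 8 detected genes in each library, with the group mean and SD (n = 3). For Cyr61 and Amotl2 the 3 Smad4-iECKO libraries lie above all controls, and for Ctgf 2 of the 3 do; the controls of Yap1 and Wwtr1 spread from 31.9 to 107.3 and from 87.2 to 447.1 CPM.

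Of the genes that restrain the pathway, neither passed the test, and Amotl2 was higher in every Smad4-iECKO library. Amotl2 (chromosome 9, 102716672 to 102733418), an angiomotin that binds YAP at endothelial junctions, was at 115.9, 134.2 and 161.3 CPM in Smad4f/f and at 171.9, 317.0 and 189.9 CPM in Smad4-iECKO. It was the second of the 8 tested members whose groups did not overlap, with the shallow Smad4-iECKO replicate 2 far above the rest. Over all genes tested, 2.49% were higher in this way. Amotl2 averaged 137.1 ± 22.8 and 226.3 ± 79.1 CPM, for a log2 fold change of 0.72 (standard error 0.33, interval -0.02 to 1.46, edgeR adjusted p = 0.999915). Without Smad4-iECKO replicate 2 the log2 fold change was 0.37.

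Lats2 (chromosome 14, 57689662 to 57758388), the kinase that phosphorylates YAP and TAZ, was at 110.1, 61.4 and 101.3 CPM in Smad4f/f and at 81.0, 78.1 and 102.4 CPM in Smad4-iECKO. Its groups overlapped, and its log2 fold change was -0.06 (standard error 0.31, interval -0.77 to 0.65). Exons of Lats2 share 2955 bases with Gm49361 on the same strand, and no source used here says how such reads were counted.

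Of the 8 tested members 5 had log2 fold changes above 0, with a median of 0.36, against 48.2% and a median of -0.02 over all genes tested. Within the libraries titled Lit38 (2 per group), the difference of mean log2 CPM was 1.30 for Ctgf, 1.09 for Cyr61 and 0.40 for Amotl2. In the pair titled Lit40 (1 library per group, no test) it was 2.47, 1.66 and 1.24. In log2 CPM the direction of these 3 genes was thus the same in each title group, whose meaning the labels do not state. The title groups hold the same libraries as the fit above, so this adds no separate support. The share of all genes tested that kept their direction is not given here. The direction of the other 5 tested members was not. Yap1 and Wwtr1 were at -0.64 and -0.85 in Lit38 and at 0.68 and 0.20 in Lit40. Tead1 was at 0.69 and -0.32, Tead4 at -0.33 and 2.01, and Lats2 at -0.21 and 0.35, in Lit38 and Lit40 respectively.

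**Figure D3:**
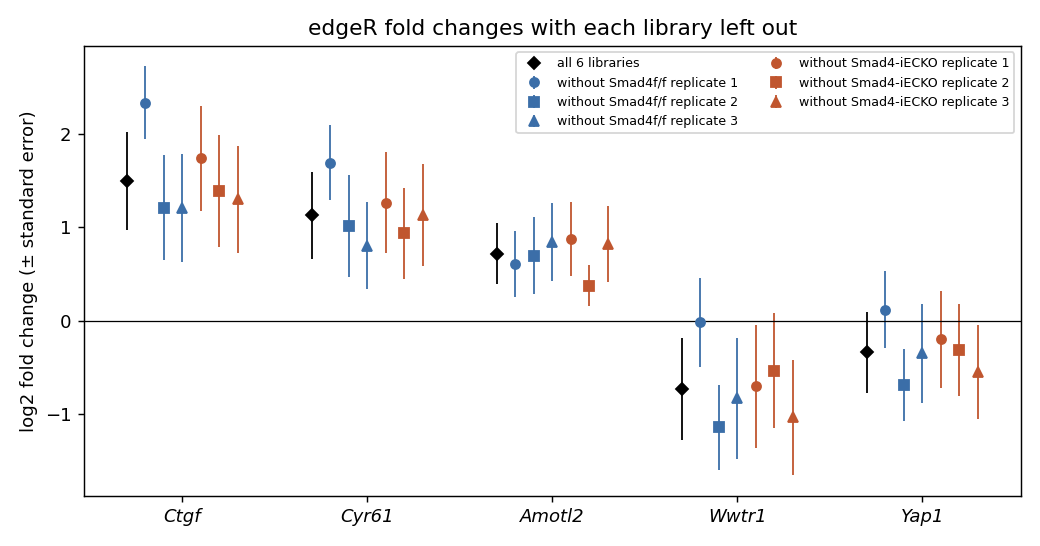
edgeR log2 fold changes (± standard error) with all 6 libraries and with each left out. Ctgf, Cyr61 and Amotl2 stay above 0 in every fit, Wwtr1 lies at -0.02 and Yap1 at 0.12 without Smad4f/f replicate 1.

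Smaller p values for these genes stand in the authors' deposited table. Its adjusted p was under 0.05 for 3 members, all higher in Smad4-iECKO, where 7.7% of its genes were called higher and 13.4% in either direction. In the authors' deposited table Ctgf had a log2 fold change of 1.23 (standard error 0.26, adjusted p = 0.000156). Cyr61 stood at 0.99 (standard error 0.23, adjusted p = 0.000622) and Amotl2 at 0.69 (standard error 0.15, adjusted p = 0.000285) in the authors' deposited table. Wwtr1, with -0.59 and an adjusted p of 0.131, Yap1, Tead1, Tead4 and Lats2 were not called in the authors' deposited table.

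The count table repeats every sample as 3 columns with identical values, so that its 18 columns hold 6 samples. With DESeq2 fitted to all 18 columns as if they were replicates, the same 3 members were called, where 7.28% of genes were called higher and 12.1% in either direction. The unadjusted p of Ctgf was 2.78e-06 in that fit and 2.92e-06 in the authors' deposited table. Its log2 fold change was 1.50 (standard error 0.32) in that fit and 1.23 (standard error 0.26) in the authors' deposited table. Both the fold change and its standard error were thus smaller in the deposited table at nearly the same p. With DESeq2 on the 6 samples, none of the members was called, 0.0611% of genes were called, and the adjusted p of Ctgf was 0.9996. In that fit 2 members, Ctgf and Cyr61, had an unadjusted p under 0.05, against 2.16% of genes.

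**Figure D4:**
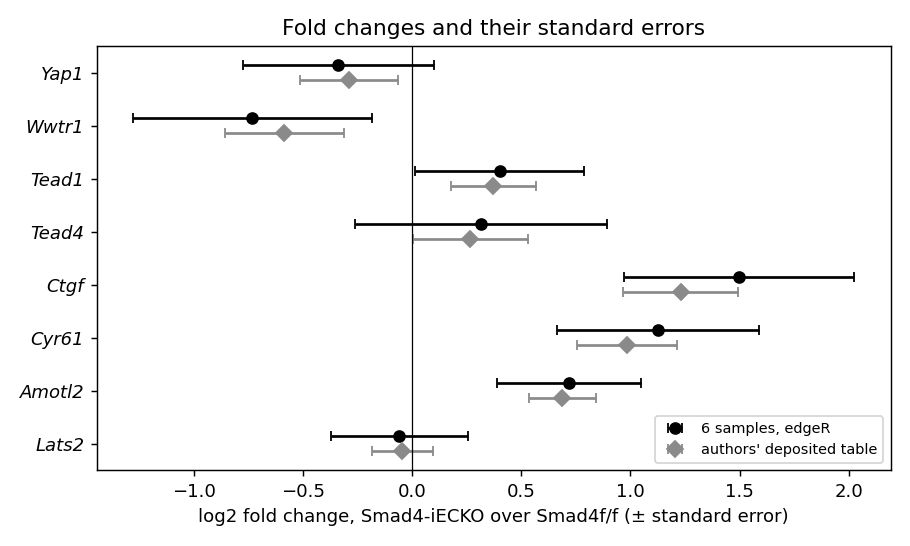
log2 fold changes with standard errors for the 8 detected genes, from edgeR on 6 samples (black) and as given by the authors' deposited table (grey). All 8 have the same sign in both, for instance 1.50 and 1.23 for Ctgf, and the standard errors of Ctgf are 0.53 and 0.26.

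Since the level of endothelial transcripts varied between libraries, each gene was also set against the mean log2 CPM of the 12 endothelial markers of its library. The Smad4f/f libraries had a mean of 8.71, 6.21 and 7.82, and the Smad4-iECKO libraries one of 7.04, 7.96 and 7.72. On this scale Ctgf was at -2.56, -1.79 and -3.43 in Smad4f/f and at -0.96, -1.07 and -0.66 in Smad4-iECKO. All 3 Smad4-iECKO libraries lay above all controls for Ctgf, as did those of 1.87% of all genes tested. The difference was 1.70 (exact two-sided permutation p = 0.1, the smallest that 3 against 3 allows, adjusted p = 1 over all genes).

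For Cyr61 and Amotl2 the groups overlapped on this scale, and Smad4f/f replicate 2, the library with the lowest endothelial level, was the highest control. Cyr61 was at -3.99, -2.46 and -4.82 in Smad4f/f and at -2.24, -2.55 and -2.62 in Smad4-iECKO, a difference of 1.29 (exact permutation p = 0.3). Amotl2 was at -1.85, 0.86 and -0.48 against 0.39, 0.35 and -0.15, a difference of 0.69 (exact permutation p = 0.6). Wwtr1 kept nearly the same level relative to the markers in 5 libraries, between -0.06 and 0.24, and was at -1.31 in Smad4-iECKO replicate 2. Yap1 ranged from -2.28 to -1.21, with overlapping groups. The differences of Tead1 (0.36), Tead4 (0.46) and Lats2 (-0.02) were also between overlapping groups. Of the 12 markers, 8 had a log2 fold change below 0 and 4 above, the lowest being Tek (-1.35, standard error 0.57). In the edgeR fit 0 of the 12 passed an adjusted p under 0.05. Tek alone had an unadjusted p under 0.05, against 1.31% of all genes tested. A response of the markers to the deletion and a different share of endothelial RNA cannot be told apart here. With Pecam1 and Cdh5 alone as the reference, the differences were 1.55 for Ctgf, 1.14 for Cyr61 and 0.54 for Amotl2.

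When counts were scaled to the summed endothelial markers, the median log2 fold change of all genes was -0.29. The fitted log2 fold changes were 1.54 for Ctgf, 0.95 for Cyr61, 0.30 for Amotl2, -0.38 for Wwtr1 and -0.20 for Yap1. Subtracting the median takes out the shift that this scaling gives to all genes. Relative to that median Ctgf was at 1.83, Cyr61 at 1.25, Amotl2 at 0.59, Wwtr1 at -0.087 and Yap1 at 0.089. Only in this last form did Yap1 lie on the opposite side from its value under TMM scaling. The fitted value of Ctgf, 1.54, had a standard error of 0.93 (edgeR unadjusted p = 0.0965), and 0 of 8 members had an unadjusted p under 0.05.

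**Figure D5:**
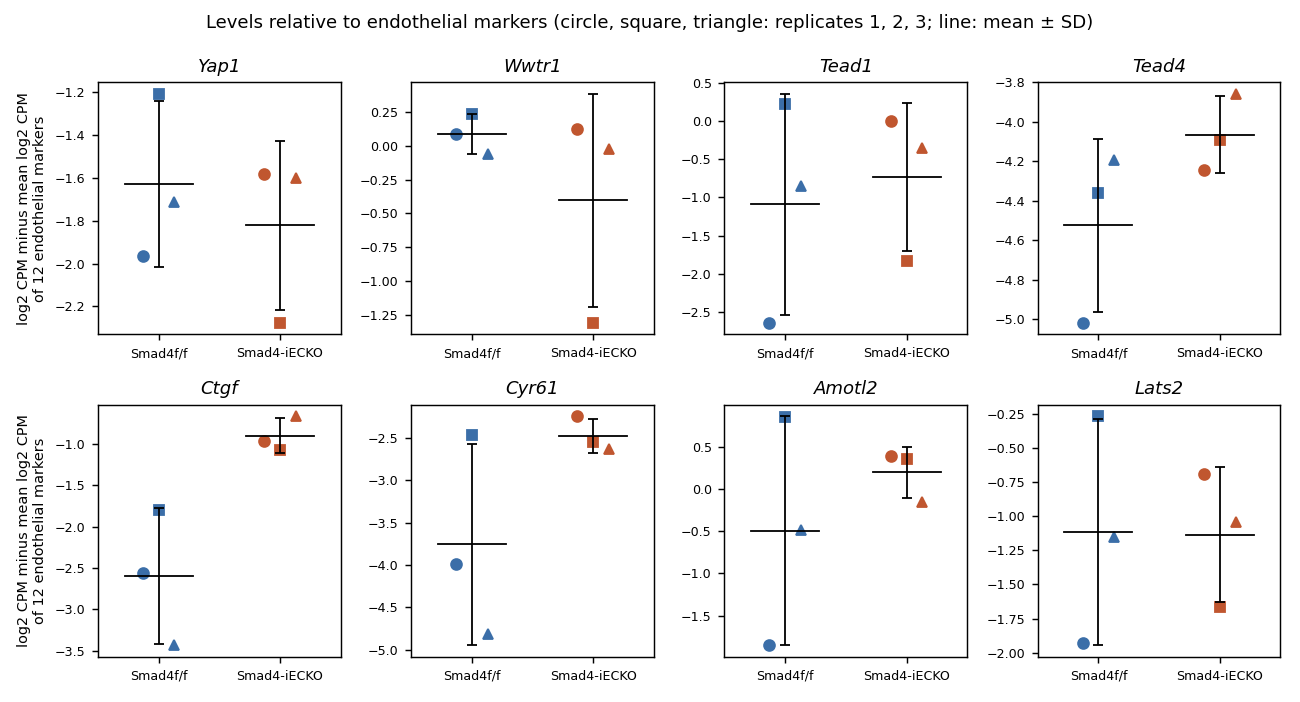
log2 CPM of the 8 detected genes minus the mean log2 CPM of 12 endothelial markers in each library, with mean and SD (n = 3). The groups of Ctgf are apart (-3.43 to -1.79 and -1.07 to -0.66), and those of all other genes overlap.

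No gene of the wider pathway passed the test. Of 21 Hippo kinases and scaffolds, all tested, 0 passed in either direction, 11 were above 0 and 10 below (median 0.10). The 3 with the smallest unadjusted p were Amot, Wwc1 and Dchs1. Amot, the founding angiomotin, was at 42.5, 16.2 and 42.0 CPM in Smad4f/f and at 16.1, 13.02 and 21.0 CPM in Smad4-iECKO (log2 fold change -0.99, standard error 0.43), with overlapping groups. Wwc1, the scaffold KIBRA, was at 19.3 ± 5.39 and 38.5 ± 28.3 CPM, and its highest value was in Smad4-iECKO replicate 2. Dchs1, an atypical cadherin, was at 222.1 ± 60.7 and 328.8 ± 84.1 CPM.

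Of 6 further TEAD and VGLL genes 3 were tested and 0 passed; VGLL proteins compete with YAP and TAZ for TEADs. Tead3 was at 55.6 ± 15.6 and 72.8 ± 19.5 CPM, Tead2 at 63.5 ± 25.7 and 53.2 ± 28.6 CPM, and Vgll4 at 26.1 ± 10.9 and 29.8 ± 10.6 CPM. Vgll1 and Vgll2 had no counts. Of the other 4 CCN family genes only Wisp1 was tested, at 7.77 ± 0.185 and 7.75 ± 4.58 CPM.

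Of 17 other genes widely listed as YAP and TAZ targets, all tested, 0 passed, 12 were above 0 and 5 below (median 0.05). Igfbp3, an insulin-like growth factor binding protein, had the smallest unadjusted p, at 305.8, 102.3 and 97.0 CPM in Smad4f/f and 447.1, 514.6 and 786.9 CPM in Smad4-iECKO. Every Smad4-iECKO library was above every control for Igfbp3 alone of the 17, and for 2.49% of all genes tested. The Igfbp3 log2 fold change was 1.79 (standard error 0.50, edgeR adjusted p = 0.999915). Foxf2, a forkhead factor of pericytes and barrier endothelium, was at 81.2 ± 62.3 and 39.0 ± 16.3 CPM. Ptpn14, a phosphatase that restrains YAP, was at 56.0 ± 26.3 and 91.6 ± 25.7 CPM. The SRF and MRTF list, whose factors also drive Ctgf and Cyr61, had 7 of 9 tested genes above 0 (median 0.29) and 0 passed. Its smallest unadjusted p was that of Tagln, at 7.23 ± 7.38 and 14.2 ± 3.002 CPM, followed by the cofactor genes Mkl2 (184.9 ± 76.7 and 138.2 ± 29.9 CPM) and Mkl1 (46.8 ± 12.9 and 61.7 ± 33.6 CPM).

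Ctgf and Cyr61 are also expressed outside the endothelium, and markers of other cells differed in direction between the lists. All 4 tested fibroblast markers had log2 fold changes above 0 (median 1.58), and the summed level of the 6 listed was 105.2 to 421.8 CPM in Smad4f/f and 300.7 to 794.9 CPM in Smad4-iECKO, with Lum at 0 in all libraries and Dcn at 0 in all but 1. All 4 tested astrocyte markers were above 0 (median 1.52), with sums over 5 markers of 34.5 to 151.7 and 107.4 to 308.5 CPM. In both lists Smad4f/f replicates 2 and 3 held the lowest sums, as they did for Ctgf and Cyr61. Microglia markers summed to 28.1 to 48.9 and 54.4 to 76.6 CPM, higher in every Smad4-iECKO library. Pericyte markers (609.8 to 2784 and 1072 to 2007 CPM) and Mueller glia markers (952.3 to 2048 and 1140 to 1997 CPM) overlapped widely, with median log2 fold changes of 0.0062 and 0.13. Of the 8 rod markers 3 were above 0 and 5 below (median -0.11). Over the fibroblast, astrocyte, microglia, pericyte and Mueller glia lists, Lum was the single marker at 0 in every library. The part of these cells in the levels of Ctgf, Cyr61 and Amotl2 was not tested.

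The patterns of single genes across the 6 libraries were also compared. Likeness was measured as the root mean square difference of log2 CPM after each gene was centred on its own mean, among 10598 other genes with at least 10 CPM on average. Hspb8, a small heat shock protein gene (0.19), and Cdh13, which encodes T-cadherin (0.21), were the closest to Ctgf. Cdh13 (0.21) and Epdr1 (0.23) were the closest to Cyr61, and Ctgf was the fourth closest (0.38). Yap1 was closest to Foxp1, a forkhead factor gene (0.093), and Tgm2, a transglutaminase gene (0.11). Lipa, the lysosomal acid lipase gene (0.11), and Cd38 (0.13) were the closest to Wwtr1. Of the 28 pairs of members, the smallest differences were those of Yap1 with Lats2 (0.29), Yap1 with Wwtr1 (0.33) and Ctgf with Cyr61 (0.38), and the largest that of Wwtr1 with Ctgf (1.23). Of the genes compared, 2.55% were closer to Yap1 than Lats2 was and 3.59% closer to Yap1 than Wwtr1 was. For Ctgf, 0.0566% were closer than Cyr61 was. Such shares depend on how much a gene varies, so those of Yap1 and Ctgf cannot be compared. For Amotl2, 69.6% of genes were closer to Yap1 (difference 0.79) and 7.96% closer to Ctgf (difference 0.91).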

How the data were processed

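The members and gene lists were chosen with earlier results of these data known. The authors' deposited count table held raw read counts per gene. The authors' deposited table of the comparison held a mean normalized signal, log2 fold changes with standard errors, a test score and p-values, per the file headers. STAR, DESeq2 and mm10 are named in the submitters' processing notes; no source used here names the counting tool or annotation. Samples were grouped by genotype, and replicate numbers follow accession order. No label names separate animals, so the p-values rest on a spread that may be technical. One of the 3 identical columns of each sample was used.

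The test was edgeR 4.0.16 (R 4.3.3) quasi-likelihood on the 6 samples across all genes, with TMM scaling, filterByExpr (minimum count 10, minimum total 15) and Benjamini-Hochberg adjustment. It was also run on simulated counts, whose outcome is not given here, so that run lends the results above no support. Intervals of log2 fold changes are 95% intervals from the quasi-likelihood degrees of freedom. Relative levels used log2 CPM with a prior count of 2 and an exact permutation of the samples. RPKM used the union exon length and gene coordinates of GENCODE M21 (mm10). DESeq2 1.42.0, limma 3.58.1 (voom), other scalings and filters, the title prefix as a block, Lit38 alone and leaving out each library were alternatives. Named genes were the members, Smad4, in each pathway list up to 3 genes with the least unadjusted p, genes that complete a small family (Lats1, Amotl1), and the 2 nearest patterns for 4 members. Figures were drawn with matplotlib 3.10.9.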

Additional observations from a re-analysis of the deposited data

How the results depend on the processing

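No member passed an adjusted p under 0.05 in any fit on 1 column per sample, and 3 did in DESeq2 on all 18 columns. Over all genes edgeR called 0, DESeq2 12, limma-voom with sample quality weights 8 and DESeq2 on all 18 columns 2235. Leaving out each library gave 0 calls in each fit, over all genes and among the members. The log2 fold changes of Ctgf, Cyr61, Amotl2, Tead1 and Wwtr1 kept their sign in all refits run, while Tead1 was at -0.32 and Wwtr1 at 0.20 in the Lit40 pair alone, which allows no test. Tead4 turned to -0.26 in Lit38 alone. Leaving out each library took Tead4 from -0.093 to 0.61, Yap1 from -0.69 to 0.12 and Lats2 from -0.28 to 0.10. Relative to endothelial markers, leaving out each library took Yap1 from -0.36 to 0.036, Tead1 from -0.42 to 1.02 and Lats2 from -0.42 to 0.41. The cause of these turns was not tested. With the title prefix as a block Ctgf was at 1.57, Cyr61 at 1.12 and Amotl2 at 0.67, with 0 calls. The replicate numbers follow accession order and pair no samples, so the title prefix was the only block fitted. In Smad4-iECKO replicate 2, the shallowest library, Tead4 and Cyr61 had the fewest counts of the detected members (31 and 91), and the limit for Ankrd1 was 1.39 CPM.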

Other observations

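The balance between the angiomotins was looked at after the values were seen, as 1 of 5 ratios of related genes per exon length. Amotl2 exceeded Amot in all 6 libraries, by 3.64, 11.1 and 5.13 times in Smad4f/f replicates 1, 2 and 3 and by 14.3, 32.5 and 12.1 times in Smad4-iECKO replicates 1, 2 and 3. The difference of log2 ratios was 1.59, given as a description without a test, since Amotl2 and Amot had already been seen to differ in opposite directions. Amotl1, the third angiomotin gene, exceeded Amotl2 in Smad4f/f replicate 1 alone, where the ratio of Amotl2 to Amotl1 was 0.545, against 1.17 to 2.48 in the other 5 libraries. In the authors' deposited table Amot had a log2 fold change of -0.87 (adjusted p = 0.00122) and Amotl1 one of 0.15.

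The ratio of Lats1 to Lats2, the 2 kinases that phosphorylate YAP and TAZ, was 0.608 in Smad4-iECKO replicate 2 and 1.15 to 3.55 in the other libraries, with overlapping groups (exact permutation p = 0.7). Lats1 was at 49.7 CPM in that library and at 132.1 to 232.1 CPM in the others. Of the 6971 exon bases of Lats2, 2955 are shared with Gm49361, so the ratio of Lats1 to Lats2 depends on how reads there were counted. The ratio of Ctgf to Cyr61 ranged from 1.13 to 2.76, with overlapping groups (exact permutation p = 0.4).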
